A study of Mus musculus with 4 samples.

Results

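The genes described here are 10 parts of the NF-kB pathway: the subunit genes Rela, Rel, Relb, Nfkb1 and Nfkb2, the inhibitor and cofactor genes Nfkbia and Nfkbiz, and the feedback genes Tnfaip3, Tnip1 and Zc3h12a. They were taken by symbol from the 27998 genes listed in each library, and all 10 were found. Hepatic CD45+ leukocytes of adult WT C57BL/6 mice were profiled with a 10x Genomics 3′ single-cell kit in 4 libraries. In 2 exercise libraries running took place on a motorized treadmill (12.5 m/min) in daily sessions of 60 min, on 5 days of each of 4 weeks. For the 2 sedentary libraries the treadmill was stationary, on the same schedule. Serum alanine aminotransferase, a blood measure of liver injury, read 26 and 59 U/L for the exercise replicates (1, then 2) and 33 and 56 U/L for the sedentary ones. The title of the series places the comparison in work on exercise before surgery and the trained immunity and metabolism of Kupffer cells, which are the macrophages that live in the liver. Age in weeks and sex are not given in the labels, and no label says whether a library held 1 animal or several, so p-values measure the spread between these libraries, which may be technical.

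After filtering, 2849 and 4078 exercise cells and 3896 and 3737 sedentary cells were kept (14560 of 15383 barcodes), with a median of 2716 and 2838.5 UMIs per exercise cell and 2026 and 2381 per sedentary cell. Pairs of libraries shared 11 to 31 cell barcodes. Clusters were named from marker genes, and the ending "-like" is a reminder that only markers stand behind each name. Kupffer-like cells (6085) carried 11 of 11 Kupffer markers, which summed to 37174 and 36693 CPM (UMIs of the gene scaled to 1000000 UMIs of the class) in exercise libraries and 32444 and 34802 CPM in sedentary libraries. Endothelial-like cells (975), named from markers of liver sinusoidal endothelium (LSEC), went against the CD45 selection: a UMI of Ptprc, the CD45 gene, was present in 9.30% to 13.5% of them per library, against 56.5% to 70.0% of Kupffer-like cells.

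NF-kB is a family of dimeric transcription factors built from the products of Rela, Rel, Relb, Nfkb1 and Nfkb2. In resting cells the dimers are held in the cytoplasm by inhibitors such as IkBα, the product of Nfkbia, until receptors for endotoxin, TNF or IL-1 activate the IKK kinases, which mark IkBα for destruction. The freed dimers switch on inflammatory genes and also their own brakes. Among these are Nfkbia itself, Tnfaip3, whose product A20 edits ubiquitin chains on signalling adaptors, Tnip1, which encodes an A20-binding partner, and Zc3h12a, which encodes the RNase Regnase-1 that destroys cytokine mRNAs. Nfkbiz encodes IkBζ, an inducible nuclear IkB protein that helps switch on a subset of secondary response genes. Nfkb2 and Relb serve the slower noncanonical arm, which runs through the kinase NIK. Kupffer cells, washed by blood from the gut, are known for their response to endotoxin through this pathway.

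The sequence upstream of the start is shown for 4 feedback genes, because these are the genes whose levels the results turn on or are set beside. Each is the stretch next to the RefSeq transcript start (GRCm38.p6, gene strand) that holds no annotated exon, at most 250 bases long, and capitals mark each match to the 10-base kB consensus or to GGANTTTCC on either strand. The stretch of Nfkbia is chr12:55492648-55492897, that of Tnfaip3 is chr10:19015411-19015547, that of Tnip1 chr11:54962941-54963190 and that of Zc3h12a chr4:125127882-125128131, all on the minus strand. The Tnfaip3 stretch lies before the RefSeq start but within the gene as annotated by GENCODE, because another of its transcripts begins further upstream.
Tnfaip3: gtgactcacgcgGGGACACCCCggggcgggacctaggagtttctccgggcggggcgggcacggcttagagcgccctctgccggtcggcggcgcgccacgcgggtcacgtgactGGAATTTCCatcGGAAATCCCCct
Nfkbia: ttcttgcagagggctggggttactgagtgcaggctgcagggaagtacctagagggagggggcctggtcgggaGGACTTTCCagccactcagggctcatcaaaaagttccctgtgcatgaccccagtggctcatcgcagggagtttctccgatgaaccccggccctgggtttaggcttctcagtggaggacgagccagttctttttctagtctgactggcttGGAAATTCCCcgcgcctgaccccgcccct
Tnip1: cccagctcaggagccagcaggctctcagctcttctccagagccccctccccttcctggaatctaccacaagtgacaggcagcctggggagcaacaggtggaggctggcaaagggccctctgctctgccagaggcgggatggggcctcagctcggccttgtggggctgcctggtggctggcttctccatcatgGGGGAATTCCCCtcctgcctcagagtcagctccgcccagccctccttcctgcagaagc
Zc3h12a: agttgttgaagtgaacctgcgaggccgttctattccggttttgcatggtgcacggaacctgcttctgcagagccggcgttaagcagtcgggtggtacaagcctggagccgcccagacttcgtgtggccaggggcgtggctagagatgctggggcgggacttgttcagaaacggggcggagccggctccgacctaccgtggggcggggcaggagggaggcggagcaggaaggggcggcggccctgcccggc
Tnfaip3 held 3 such stretches in 137 bases, at 125 to 116, 24 to 16 and 12 to 3 bases before the start. Nfkbia held 2 in 250 bases, at 178 to 170 and 29 to 20 bases before the start, and the second matched both motifs. Tnip1 held 1 stretch of 12 bases, GGGGAATTCCCC, in which 4 overlapping matches on both strands coincide. Zc3h12a held no match in 250 bases. RefSeq windows were given for 7 of the 10 genes (not for Nfkbiz, Nfkb1 and Relb). The kB consensus was present within 250 bases before the start in 5 of these 7 (Nfkbia, Tnfaip3, Nfkb2, Rel and Tnip1) and in 7.25% of all 32851 windows of the same length. For Nfkb2 and Rel no exon-free base lies next to the start used, so their windows overlap annotated exons, and that of Nfkb2 lies inside the annotated gene. The Rel window (chr11:23770970-23771219) meets the annotated Rel gene only at base 23770970, and its matches lie 92 to 82 bases before the start. GGANTTTCC, which overlaps the consensus in part, was present in 2 of 7 (Nfkbia and Tnfaip3) and in 1.07% of all windows. A match describes the letters only, and the motifs were chosen after several patterns had been looked at in these windows.

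In Kupffer-like cells the transcripts of the feedback gene Tnfaip3 and the cofactor gene Nfkbiz fell after exercise, and none of the subunit genes was called by edgeR in either direction. Tnfaip3 fell 3.04-fold, Nfkbiz fell 1.83-fold, and Nfkbia was lower in each exercise library than in either sedentary one without passing the test. The test was edgeR's quasi-likelihood F-test on UMIs summed per library, with Benjamini-Hochberg adjustment over all 9890 genes tested and a threshold of 0.05. All 10 genes passed its filter on low counts, 2 were called lower, against 0.465% of all genes tested, and 0 were called higher, against 0.0101%. DESeq2 called 3 (Nfkbia, Nfkbiz and Tnfaip3), all lower, against 0.718% of all genes, and 3 of the 10 had an unadjusted p under 0.05 in edgeR, against 5.48% of all genes. Both exercise libraries lay below both sedentary libraries for 4 of the 10 genes (Nfkbia, Nfkbiz, Tnfaip3 and Tnip1), against 16.7% of all genes tested, and above them for 1 (Relb), against 17.7%.

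Tnfaip3 (ENSMUSG00000019850, GRCm38 chromosome 10, 19000910 to 19015657, minus strand) stood at 17.6 and 21.1 CPM in exercise replicates 1 and 2, against 49.7 and 68.6 CPM in sedentary replicates 1 and 2. The groups did not overlap, and both exercise libraries were well below the lower sedentary library. These levels rest on 71 and 128 UMIs in exercise libraries and 178 and 299 UMIs in sedentary libraries. The means were 19.4 ± 2.47 CPM in exercise libraries and 59.2 ± 13.4 CPM in sedentary libraries (SD, n = 2 each). Tnfaip3 fell by 1.60 in log2 units (SE 0.198, edgeR adjusted p = 0.0163), and its fitted change was lower than that of all but 1.01% of genes tested. Without exercise replicate 1 it no longer passed (log2 change −1.48, edgeR adjusted p = 0.393), nor did it without exercise replicate 2 (−1.77, edgeR adjusted p = 0.0867).

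Nfkbiz (ENSMUSG00000035356, chromosome 16, 55811375 to 55838899, minus strand) stood at 84.8 and 92.7 CPM in exercise libraries, against 146 and 179 CPM in sedentary libraries, from 341, 561, 523 and 779 UMIs in that order. Again the groups did not overlap, and the 2 exercise libraries were closer to each other than the 2 sedentary ones. It averaged 88.7 ± 5.59 CPM in exercise libraries and 162 ± 23.1 CPM in sedentary libraries (SD, n = 2 each), and fell by 0.87 in log2 units (SE 0.140, edgeR adjusted p = 0.0453). Of the alternatives 8 ended the call and 10 kept it, and this adjusted p lies close to the threshold. Without exercise replicate 1 it was 0.643, without exercise replicate 2 it was 0.233 and without sedentary replicate 2 it was 0.0501 (edgeR), with log2 changes of −0.80, −0.96 and −0.69.

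Nfkbia (ENSMUSG00000021025, chromosome 12, 55489410 to 55492647, minus strand) stood at 379 and 421 CPM in exercise libraries, against 573 and 736 CPM in sedentary libraries. The order of the libraries was the same as for Nfkbiz and Tnfaip3, with sedentary replicate 2 highest and exercise replicate 1 lowest. The means were 400.0 ± 30.1 CPM in exercise libraries and 655 ± 115 CPM in sedentary libraries (SD, n = 2 each). Its log2 change was −0.71 (SE 0.149, unadjusted p = 0.00124), which did not pass after adjustment (edgeR adjusted p = 0.143). Without sedentary replicate 1 its log2 change was −0.91, with 1 sedentary library left in the fit.

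Of the other feedback genes, Tnip1 stood at 11.9 and 12.7 CPM in exercise libraries, against 18.7 and 14.2 CPM in sedentary libraries (log2 change −0.40, SE 0.202, edgeR adjusted p = 0.945). The exercise libraries were just below the lower sedentary library, on 48 to 77 UMIs per library. Zc3h12a was at the edge of what these libraries resolve, with 28 to 62 UMIs per library: 7.95 and 10.2 CPM in exercise libraries, against 7.82 and 9.64 CPM in sedentary libraries (log2 change 0.07, SE 0.258). Its groups overlapped almost entirely.

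The activating subunits of the canonical arm showed no called change. Rela, which encodes the p65 subunit, stood at 54.2 and 49.9 CPM in exercise libraries, against 58.1 and 53.5 CPM in sedentary libraries (log2 change −0.10, SE 0.114). Rel, which encodes c-Rel, stood at 38.0 and 60.0 CPM in exercise libraries, against 40.5 and 53.0 CPM in sedentary libraries (0.08, SE 0.231). In both groups replicate 2 of Rel was above replicate 1, and the spread within the exercise group exceeded the difference between groups. Nfkb1, the precursor gene of the p50 subunit, stood at 114.6 and 91.3 CPM in exercise libraries, against 109 and 101 CPM in sedentary libraries (−0.04, SE 0.126). Exercise held both the highest and the lowest Nfkb1 library.

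The noncanonical pair was low in Kupffer-like cells. Nfkb2, the precursor gene of p52, stood at 14.4 and 10.9 CPM in exercise libraries, against 9.78 and 15.1 CPM in sedentary libraries (log2 change −0.02, SE 0.267). Its partner Relb stood at 21.1 and 20.3 CPM in exercise libraries, against 15.9 and 20.2 CPM in sedentary libraries (0.18, SE 0.185). Both exercise libraries of Relb lay above both sedentary ones, and sedentary replicate 2 nearly reached them. The edgeR adjusted p of these 7 genes (Tnip1, Zc3h12a, Rela, Rel, Nfkb1, Nfkb2 and Relb) ran from 0.945 to 0.996, which does not show that their levels were alike. The SE of Rela, 0.114 on the log2 scale, was the smallest of the 10 and that of Nfkb2 the largest. On GRCm38 these 7 genes lie on chromosome 11 (Tnip1, 54910785 to 54962917, and Rel, 23736847 to 23770970, both minus strand), chromosome 4 (Zc3h12a, 125118423 to 125127840, minus), chromosome 19 (Rela, 5637483 to 5648130, and Nfkb2, 46304320 to 46312385, both plus), chromosome 3 (Nfkb1, 135584655 to 135691547, minus) and chromosome 7 (Relb, 19606217 to 19629438, minus). Nfkb1, Nfkb2 and Tnip1 overlap other annotated genes (Gm43430, AC114539.1 and Psd, and Gm12230), and no source used here gives the use of strand in counting, so part of their UMIs may belong to those genes.

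**Figure D1:**
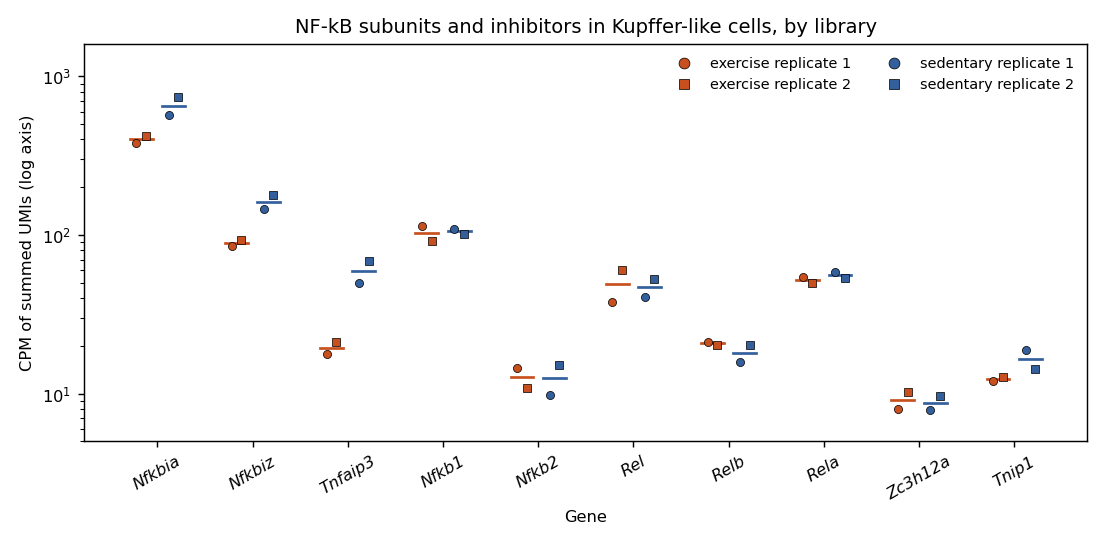
Level of each of the 10 genes in Kupffer-like cells, in CPM of summed UMIs on a log axis, with 1 point per library and a bar at the group mean (exercise left, sedentary right of each pair). The exercise points of Tnfaip3 (17.6 and 21.1), Nfkbiz (84.8 and 92.7) and Nfkbia (379 and 421) lie below the sedentary points, whereas those of Rela, Rel, Nfkb1, Nfkb2 and Zc3h12a overlap them.

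Other transcripts moved with these groups in the same Kupffer-like sums, and their part in the results was not tested beyond the values given here. The 9 hepatocyte markers summed to 150.4 and 122 CPM in exercise libraries and 1537 and 801 CPM in sedentary libraries, and erythroid markers to 97.4 and 293 CPM in exercise libraries and 6018 and 908 CPM in sedentary libraries. Mitochondrially encoded transcripts summed to 64500 and 60777 CPM in exercise libraries and 81151 and 70235 CPM in sedentary libraries. A list of 20 genes, called immediate early genes of dissociation here, also holds heat shock chaperones such as Hspa1a and Hsp90aa1. The name is a label and gives no cause. This list summed to 5705 and 5682 CPM in exercise libraries and 6240 and 8964 CPM in sedentary libraries, with sedentary replicate 2 highest as for Tnfaip3. Cells with no UMI of a hepatocyte marker were a small and shallow part of the sedentary side: 846 of 1272 and 1325 of 1858 Kupffer-like cells in exercise libraries (median 2350 and 2547 UMIs), against 158 of 1484 and 304 of 1471 in sedentary libraries (1419 and 1687 UMIs). In these cells Tnfaip3 had as large a change (log2 change −1.59, edgeR adjusted p = 0.017), and Nfkbiz had a similar change without passing (−0.84, edgeR adjusted p = 0.106). Neutrophil markers summed to 66.4 and 106 CPM in exercise libraries and 122.9 and 172 CPM in sedentary libraries, and plasma cell markers to 155 and 160.0 CPM in exercise libraries and 221 and 350 CPM in sedentary ones, with no marker of either list at 0 in all libraries.

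The Kupffer-like class is made of 4 clusters, and in 3 of them both exercise libraries lay below both sedentary ones for Tnfaip3, Nfkbiz and Nfkbia. The clusters share the same 4 libraries and do not replicate each other. How many of all genes lay below was not computed within a cluster, and in the whole class 16.7% did. In the largest, c0 (2255 cells, led by Apoc1, Cd207, C1qb and Clec4f), Tnfaip3 stood at 12.5 and 18.9 CPM in exercise libraries, against 37.9 and 59.7 CPM in sedentary libraries. In c2 (1996 cells, led by Sdc3, Hmox1 and Vcam1) it stood at 26.3 and 23.6 CPM in exercise libraries, against 72.7 and 101 CPM in sedentary ones. In c4 (1101 cells) it stood at 36.8 and 43.8 CPM in exercise libraries, against 74.5 and 78.8 CPM in sedentary ones. The groups did not overlap in any of these 3 clusters. Tnfaip3 was called in c0 (log2 change −1.60, edgeR adjusted p = 0.0149) and in c2 (−1.82, edgeR adjusted p = 0.00133) but not in c4 (−0.92, edgeR adjusted p = 0.986), and Nfkbiz was called in c0 (−1.04, edgeR adjusted p = 0.0143) and not in c2 (−0.68, edgeR adjusted p = 0.104) or c4 (−0.75, edgeR adjusted p = 0.809). Nfkbia was called in c2 (−0.85, edgeR adjusted p = 0.00873) and not in c0 (−0.70, edgeR adjusted p = 0.0954), and whether the clusters differ from each other was not tested. Hemoglobin genes lead c4 and c6 by fold, and with c0 and c2 alone, an alternative added after the data were seen, Tnfaip3 was at −1.76 (edgeR adjusted p = 0.00997) and Nfkbiz at −0.95 (edgeR adjusted p = 0.0261). Of all genes tested, edgeR called 0.598% in c0, 0.465% in c2, 0.205% in c4 and 0.508% in c0 and c2 together.

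Cluster c6 (733 cells, with 0.591 of its libraries' median UMIs) held few UMIs of Tnfaip3 and Nfkbiz, and its Nfkbia level lay below those of c0, c2 and c4. Tnfaip3 gave 0 and 3 UMIs there in exercise libraries and 0 and 3 UMIs in sedentary libraries, and Nfkbiz 6 and 7 UMIs in exercise libraries and 1 and 10 UMIs in sedentary ones. Nfkbia stood at 244 and 166 CPM (43 and 49 UMIs) in exercise libraries, against 153 and 241 CPM (53 and 91 UMIs) in sedentary libraries, so the groups overlapped there.

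**Figure D2:**
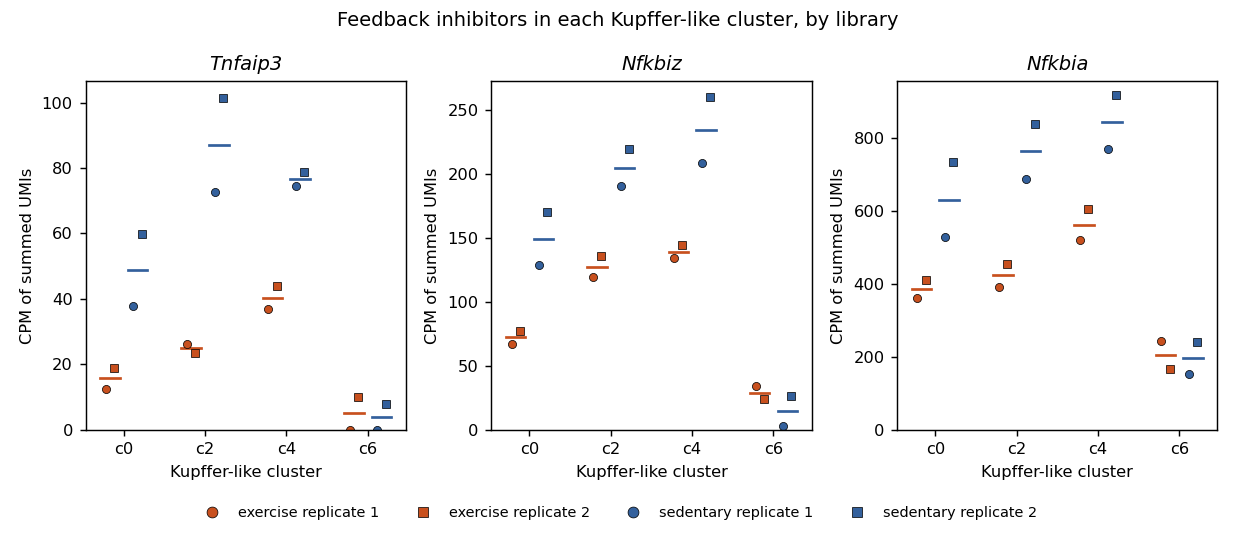
Level of Tnfaip3, Nfkbiz and Nfkbia in each Kupffer-like cluster, in CPM of summed UMIs, with 1 point per library and a bar at the group mean (exercise left, sedentary right). In c0, c2 and c4 each exercise point lies below each sedentary point, and in c6 Tnfaip3 gave at most 3 UMIs per library.

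The share of cells in which the transcripts were seen moved the same way. Cells were thinned to 1500 UMIs each, which left out 228 and 261 shallower Kupffer-like cells of the exercise libraries and 444 and 308 of the sedentary libraries. A Tnfaip3 UMI was then found in 2.01% and 3.01% of Kupffer-like cells in exercise libraries, against 7.98% and 10.1% in sedentary libraries, with no overlap. In single libraries the exact binomial 95% intervals, which cover counting error only, were 1.25 to 3.06 and 2.22 to 3.97 in exercise libraries and 6.41 to 9.80 and 8.39 to 11.9 in sedentary libraries. For Nfkbiz the shares were 11.9% and 12.5% in exercise libraries and 18.6% and 22.8% in sedentary libraries, and for Nfkbia 38.1% and 43.5% in exercise libraries and 55.6% and 63.7% in sedentary ones. Without thinning, Tnfaip3 was seen in 4.64% and 5.81% of exercise cells and 10.2% and 16.3% of sedentary cells, and Nfkbiz in 19.97% and 21.5% of exercise cells and 25.4% and 34.2% of sedentary cells. In B-like cells, among the lowest classes for Nfkbiz, an Nfkbiz UMI was seen in 4.53% and 2.20% of thinned exercise cells and 1.83% and 2.59% of thinned sedentary cells.

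Among the other classes, 10 had at least 20 cells in every library and were fitted on their own, which gave 73 tests of these genes. Tnfaip3 in NK or ILC-like cells, lymphocytes of innate immunity, was the 1 call: it stood at 17.7 and 41.9 CPM (3 and 14 UMIs) in exercise libraries, against 97.6 and 124 CPM (21 and 33 UMIs) in sedentary libraries. It fell by 1.74 in log2 units (SE 0.389, edgeR adjusted p = 0.0401), where 0.18% of genes tested were called lower, 0.03% higher and 0.21% in either direction. Of 10 alternatives 5 ended the call: leaving out exercise replicate 1 (log2 change −1.41, edgeR adjusted p = 0.0570) or sedentary replicate 2 (−1.55, 0.580), stricter cell filters (−1.72, 0.0938), keeping doublets (−1.86, 0.0810) and DESeq2 (−1.82, adjusted p = 1.00). In T-like cells Tnfaip3 stood at 23.8 and 35.4 CPM in exercise libraries, against 63.0 and 137 CPM in sedentary libraries. Its groups did not overlap there either, but the log2 change of −1.81 did not pass (SE 0.308, edgeR adjusted p = 0.0519).

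Hepatocyte markers also differed between the groups in these lymphocytes, at 23.2 and 24.4 CPM in exercise libraries and 261 and 68.7 CPM in sedentary libraries in T-like cells, and at 17.7 and 68.8 CPM in exercise libraries and 265 and 82.9 CPM in sedentary libraries in NK or ILC-like cells. Immediate early genes summed to 4989 and 5278 CPM in exercise libraries and 5260 and 6890 CPM in sedentary libraries in T-like cells, and to 5355 and 5097 CPM in exercise libraries and 5120 and 6717 CPM in sedentary libraries in NK or ILC-like cells. The part of either in the Tnfaip3 values was not tested.

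In T-like cells edgeR called 0 of 10 genes, against 0.109% of all genes tested there. It called 0 of 10 in B-like cells (0.0904% of genes), 0 of 9 in endothelial (LSEC)-like cells (0.0153%) and 0 of 5 in cycling Kupffer-like cells (0.0741%). In pDC-like (9 tested), other macrophage-like (4), cDC1-like (7), classical monocyte-like (9) and cDC2-like cells (6) edgeR called 0 of these genes, and 0% of all genes were called in each. Of the 73 tests, 11 had an unadjusted p under 0.05 in edgeR, against 5.11% of all genes tested over these classes, and DESeq2 called 0, against 0.0642%. Among the 11, Rel in cycling Kupffer-like cells (0.99) and Nfkb1 in classical monocyte-like cells (0.89) had a positive change, and the others a negative one. That Rel test and Nfkbiz in cDC1-like cells, also among the 11, passed the filter on low counts only through the group with the higher level.

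In 20 of the 73 tests the exercise libraries both lay below the sedentary ones, and in 4 they both lay above. Nfkbiz in cDC1-like cells passed the filter on low counts only through sedentary libraries, and Rel in cycling Kupffer-like cells only through exercise libraries. The direction of these cases is partly set by the filter. T-like cells had 4 of 10 genes below and 0 above (13.1% and 24.6% of all genes tested in the class), and cDC1-like cells 4 of 7 and 0 (12.3% and 22.4%). Other macrophage-like cells had 3 of 4 below and 0 above (14.7% and 17.7% of all genes), NK or ILC-like cells 2 of 4 and 0 (16% and 17.4%), and cDC2-like cells 2 of 6 and 0 (15.7% and 18.1%). The remaining 5 classes had 1 gene below each: B-like cells with 1 of 10 below and 1 above (15.5% and 19.6%), pDC-like cells with 1 of 9 and 1 (15.2% and 19.1%), endothelial-like cells with 1 of 9 and 0 (14.8% and 18.8%), cycling Kupffer-like cells with 1 of 5 and 1 (16.5% and 15.7%), and classical monocyte-like cells with 1 of 9 and 1 (15.1% and 11.9%).

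The sign of Tnfaip3, Nfkbiz and Nfkbia was mostly negative across classes, which share the same 4 libraries and are therefore not independent. Tnfaip3 had a negative log2 change in 6 of the 6 classes in which it was tested, Kupffer-like cells included, with the smallest in endothelial-like (−0.26) and B-like cells (−0.35). Nfkbiz was negative in 9 of 9, from −0.02 in B-like to −1.26 in cDC1-like cells, where it rests on 5 and 7 UMIs in exercise libraries and 12 and 12 UMIs in sedentary libraries. In cDC1-like cells Nfkbiz passed the filter on low counts only through its sedentary libraries, so its sign there is partly set by the filter. Nfkbia was negative in 9 of 11, the exceptions being pDC-like (0.06) and NK or ILC-like cells (0.36). In other macrophage-like cells Nfkbia stood at 383 and 389 CPM in exercise libraries, against 702 and 779 CPM in sedentary libraries (−0.97, SE 0.207, edgeR adjusted p = 0.214). The exercise libraries were nearly alike there and well below the sedentary ones, in a class of 341 cells. In endothelial-like cells, by contrast, Nfkbia spread more within a group than between groups, at 371 and 772 CPM in exercise libraries and 509.7 and 1185 CPM in sedentary libraries, with replicate 2 higher in both.

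**Figure D3:**
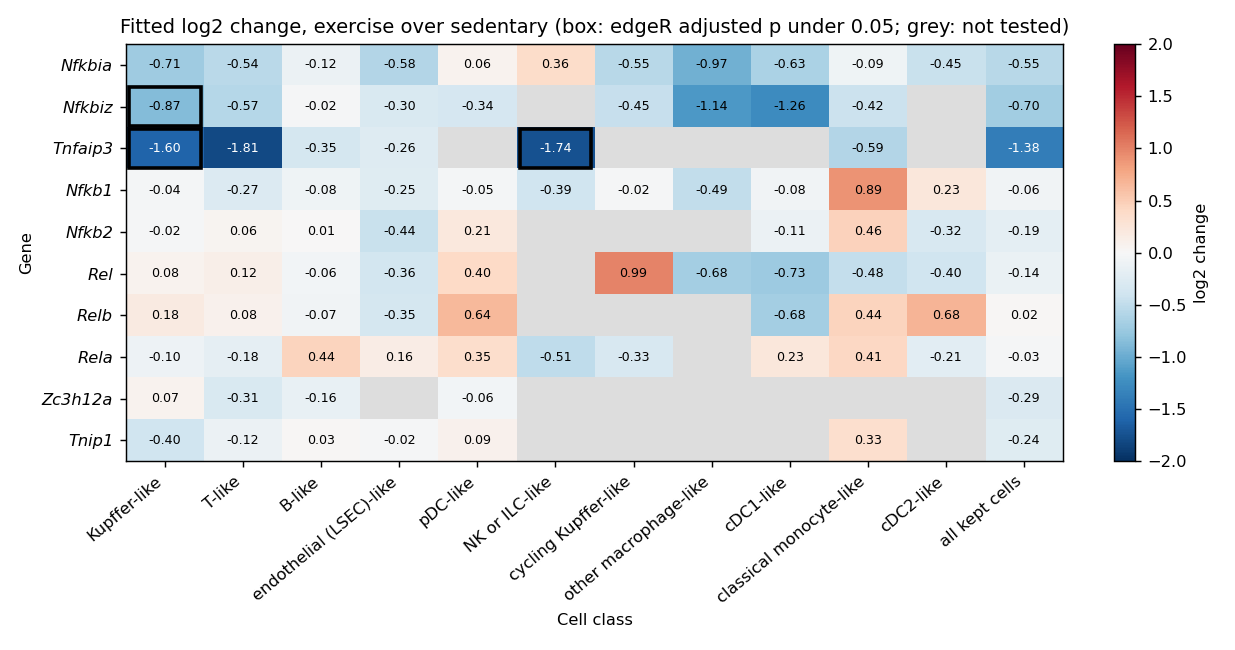
Fitted log2 change, exercise over sedentary, of each of the 10 genes in the 11 classes tested and over all kept cells (red higher, blue lower in exercise libraries; boxes mark edgeR adjusted p under 0.05; grey cells were not tested because of low counts). The boxes stand at Tnfaip3 (−1.60) and Nfkbiz (−0.87) in Kupffer-like cells and at Tnfaip3 (−1.74) in NK or ILC-like cells.

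Whether the change differed between classes was tested directly for Kupffer-like against B-like, T-like and endothelial-like cells, with the library as a block. In these 30 tests edgeR called 0 genes of the 10, against 0.0691%, 0.145% and 0.0874% of all genes for the 3 pairs, and 5 of the 30 had an unadjusted p under 0.05, against 5.76% of all genes. Nfkbia came closest, with a change 0.56 lower on the log2 scale in Kupffer-like than in B-like cells (SE 0.131, edgeR adjusted p = 0.123). Tnfaip3 differed by −1.33 from endothelial-like cells (SE 0.360, edgeR adjusted p = 0.287), by −1.19 from B-like cells (SE 0.490, edgeR adjusted p = 0.857) and by 0.17 from T-like cells (SE 0.237, edgeR adjusted p = 0.974). Summed over all kept cells, which also carries shifts in cell type makeup, edgeR called 0 of the 10, against 0.074% of all genes, 3 had an unadjusted p under 0.05 (Tnfaip3, Nfkbiz and Nfkbia, all negative), against 6.78% of all genes, and DESeq2 called 2, against 0.683%. There 4 of the 10 had both exercise libraries lowest and 0 had them highest, against 15.2% and 22% of all genes. There Tnfaip3 was at −1.38 (edgeR adjusted p = 0.202).

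Across cell types the 10 genes had different profiles, described here as the mean CPM over the 4 libraries with its SD and without a test, since the classes were made from the same counts. Nfkbiz was highest in the macrophage classes. Its level was 186 ± 84.0 CPM in other macrophage-like cells, 126 ± 44.7 in Kupffer-like, 73.5 ± 24.5 in cycling Kupffer-like and 64.5 ± 16.4 in classical monocyte-like cells, and 14.5 ± 6.74 in cDC1-like cells at the low end. The ranges of neighbours in this order overlapped except that of classical monocyte-like over endothelial-like cells (38.2 ± 8.55). Among classes too small to be tested, 92 patrolling monocyte-like cells held 289 ± 63.2 CPM and 145 neutrophil-like cells 159 ± 33.9 CPM.

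Tnfaip3 was highest in NK or ILC-like (70.4 ± 49.1 CPM) and T-like cells (64.9 ± 51.1), followed by classical monocyte-like (55.2 ± 21.3) and Kupffer-like cells (39.3 ± 24.3), and lowest in cDC1-like cells (7.27 ± 3.83). No neighbours in its order were apart beyond their spread, and the large SDs of the first 2 classes hold the difference between exercise and sedentary libraries. Nfkbia ran from 709 ± 358 CPM in endothelial-like cells to 172 ± 23.6 in pDC-like cells, with Kupffer-like cells at rank 4 of 11 (527 ± 162). In neutrophil-like cells, of which 1 library held 7, it reached 1220 ± 538 CPM.

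The noncanonical genes Relb and Nfkb2 were highest in B-like, cDC2-like and classical monocyte-like cells among the tested classes and lowest in the 3 macrophage classes. Relb was highest in cDC2-like (77.0 ± 40.3 CPM) and B-like cells (73.6 ± 11.8), and Kupffer-like (19.4 ± 2.35) and cycling Kupffer-like cells (9.44 ± 7.82) came last of 11. Nfkb2 was highest in B-like cells (63.8 ± 7.25), against 12.6 ± 2.62 in Kupffer-like and 5.15 ± 3.62 in cycling Kupffer-like cells, where each library held at most 2 UMIs. The 61 migratory DC-like cells, named from markers such as Ccr7 and Fscn1 of dendritic cells that travel to lymph nodes, stood above all 11 tested classes for Relb, Nfkb2 and Rel. In them Relb reached 1358 and 954 CPM in the exercise libraries and 959 and 676 CPM in sedentary libraries. The lowest of these 4 values lay above the highest library of any tested class (135 CPM, cDC2-like). Nfkb2 stood at 288 and 195 CPM in exercise libraries and 296 and 143 CPM in sedentary libraries there, and Rel at 367 and 287 CPM in exercise libraries and 227 and 543 CPM in sedentary ones. These values rest on 12 and 14 cells in exercise libraries and 18 and 17 cells in sedentary libraries.

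Rel was highest in B-like cells among the tested classes (93.7 ± 8.40 CPM) and lowest in T-like cells (24.2 ± 5.55), with Kupffer-like cells at rank 4 (47.9 ± 10.4). Among the same classes Nfkb1 ran from 244 ± 57.7 CPM in cDC2-like to 68.4 ± 12.6 in T-like cells. Rela varied 2.45-fold between the highest class (endothelial-like, 76.1 ± 7.80 CPM) and the lowest (cDC1-like, 31.1 ± 6.33), whereas Nfkbiz varied 12.8-fold. Among the tested classes Tnip1 was highest in classical monocyte-like (51.8 ± 22.9) and lowest in Kupffer-like cells (14.4 ± 3.03), and Zc3h12a highest in other macrophage-like (29.99 ± 11.4) and B-like cells (27.7 ± 6.47), against 8.91 ± 1.21 in Kupffer-like cells. In classes too small to be tested, patrolling monocyte-like cells held 253 ± 21.9 CPM of Nfkb1 and 52.7 ± 30.5 of Tnip1, and migratory DC-like cells 106 ± 36.5 of Rela and 54.5 ± 31.2 of Tnip1. For none of Rel, Nfkb1, Rela, Tnip1 and Zc3h12a were neighbours in the order apart beyond their ranges.

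**Figure D4:**
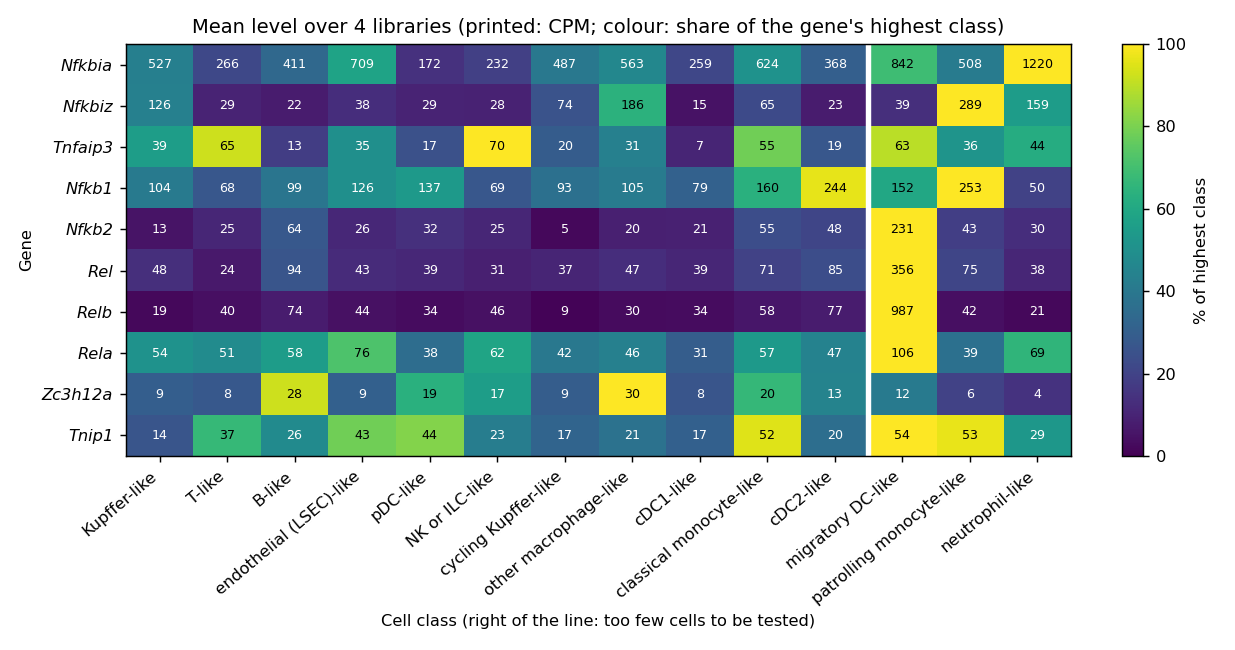
Mean level over the 4 libraries of each gene (rows) in each cell class (columns), printed in CPM and coloured as a share of the gene's highest class; colours are comparable along a row, not between rows. Relb, Nfkb2 and Rel peak in migratory DC-like cells (987, 231 and 356 CPM) and Nfkbiz in patrolling monocyte-like cells (289 CPM), both classes with too few cells to be tested.

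The genes with the most similar profile were found by Pearson correlation of log2(mean CPM + 1) over the 11 tested classes, among 5573 genes with a mean of at least 20 CPM, as a description: the classes share libraries and differ in depth. Nfkbiz came with Trem2 (r = 0.947), Cxcl2 (0.944), Pilra (0.943), Cd14 (0.936) and Clec4n (0.932). Relb came with Nfkb2 (0.959), itself one of the 10, and with Rest (0.941), Hmha1 (0.889), Tpm3-rs7 (0.887) and 4930523C07Rik (0.883). The profiles of Tnfaip3 and Rel had less close companions: Ifi47 (0.889), Igtp (0.889), Abtb1 (0.886), Acaa2 (0.872) and Azi2 (0.867) for Tnfaip3, and Lyl1 (0.858), Birc3 (0.852), H3f3a (0.839), Mbtd1 (0.836) and Cd40 (0.829) for Rel.

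The rest of the pathway in Kupffer-like cells was described with lists of its receptors, adaptors, kinases, other inhibitors and target genes. Over all 9890 genes 4878 had a negative log2 change and the median was 0.00311, which is the level to read the lists against. Of the receptors that feed NF-kB, 11 of 14 were tested, 8 had a negative change and the median was −0.06. Ly96, the endotoxin-binding partner of TLR4, stood at 207 and 163 CPM in exercise libraries, against 134 and 139 CPM in sedentary libraries, apart between groups but not called (log2 change 0.43, SE 0.129, edgeR adjusted p = 0.4998). The TNF receptor Tnfrsf1a was at −0.10 and the lymphotoxin receptor Ltbr at −0.07.

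Of the adaptors upstream of IKK, 15 of 15 were tested, 7 were negative and the median was 0.04. Traf3, which restrains the noncanonical arm, was at −0.38, the NOD adaptor kinase Ripk2 at 0.57 and the C-type lectin adaptor Card9 at 0.71, each with an edgeR adjusted p of at least 0.928. Of the IKK kinases and their scaffold, 11 of 11 were tested, 6 were negative and the median was −0.00. Ikbkb, the catalytic subunit of the canonical kinase, stood at 86.7 and 85.9 CPM in exercise libraries, against 79.9 and 82.4 CPM in sedentary libraries (0.09, SE 0.108). Its exercise libraries lay slightly above its sedentary ones. The IKK activator subunits Tab1 (0.27) and Tab3 (0.40) had fewer than 6 CPM in each library.

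Of the other IkB proteins, 4 of 5 were tested, 2 were negative and the median was 0.10. Nfkbie, which encodes IkBε, was at 0.43, Bcl3, a nuclear IkB protein, at 0.32, and Nfkbid, which encodes IkBNS, at −0.32, with edgeR adjusted p from 0.955 to 0.967. Of the other ubiquitin-editing and RNA-decay brakes, 16 of 17 were tested, 9 were negative and the median was −0.06. Zfp36, whose product tristetraprolin destroys TNF mRNA, stood at 381 and 390.1 CPM in exercise libraries, against 432 and 620 CPM in sedentary libraries (−0.45, edgeR adjusted p = 0.802). Its relatives went apart, Zfp36l1 at −0.47 (edgeR adjusted p = 0.468) and Zfp36l2 at 0.47 (edgeR adjusted p = 0.484). In these 5 lists of receptors, adaptors, kinases, IkB proteins and brakes edgeR and DESeq2 each called 0 genes, against 0.475% and 0.718% of all genes. In lists this short 0 calls lies near those shares. In the same order 1, 0, 0, 0 and 3 genes had an unadjusted p under 0.05 in edgeR, against 5.48% of all genes.

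The inducible target genes summed to 1996 and 2306 CPM in exercise libraries and 2162 and 3374 CPM in sedentary libraries, so the groups overlapped and sedentary replicate 2 was highest. Of 30 listed, 26 were tested, 23 had a negative change and the median was −0.32. In edgeR 1 was called lower, 0 were called higher and 9 had an unadjusted p under 0.05. Over all genes tested these shares were 0.465%, 0.0101% and 5.48%. The 1 called, Ccl3, which encodes the chemokine MIP-1α, stood at 79.5 and 86.4 CPM in exercise libraries, against 139 and 174 CPM in sedentary libraries. It fell by 0.92 in log2 units (SE 0.146, edgeR adjusted p = 0.0453), and 7 of 18 alternatives ended the call. These were leaving out exercise replicate 1 (log2 change −0.84, edgeR adjusted p = 0.643) or exercise replicate 2 (−0.999, 0.240), keeping doublets (−0.87, 0.0702), resolution 0.5 (−0.93, 0.0547), cells with no hepatocyte marker UMI (−0.76, 0.175) and clusters c2 (−0.52, 0.529) and c4 (−0.57, 0.996) alone. The neutrophil chemokine Cxcl2 stood at 63.1 and 58.1 CPM in exercise libraries, against 94.4 and 170.1 CPM in sedentary ones (−1.14, edgeR adjusted p = 0.180), and its relative Cxcl1 at 2.98 and 1.82 CPM in exercise libraries, against 5.59 and 9.64 CPM in sedentary ones (−1.74, edgeR adjusted p = 0.259).

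Immediate early genes of dissociation had the lowest median of the lists, −0.45, with 20 of 20 tested and 16 negative. In edgeR 10 had an unadjusted p under 0.05, against 5.48% of all genes, and of these Klf2 was positive (0.37) and the others negative. EdgeR and DESeq2 each called 0 genes of the list, against 0.475% and 0.718% of all genes. Atf3, a stress-induced transcription factor, stood at 18.1 and 14.04 CPM in exercise libraries, against 26.5 and 44.8 CPM in sedentary libraries (−1.18, edgeR adjusted p = 0.198). Ier5 (−0.48, edgeR adjusted p = 0.251) and the AP-1 gene Fosb (−0.54, edgeR adjusted p = 0.273) were also negative. Sedentary replicate 2 had the highest summed level of this list and also the highest Tnfaip3, Nfkbiz and Nfkbia levels, and the part of tissue handling in these values was not tested.

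**Figure D5:**
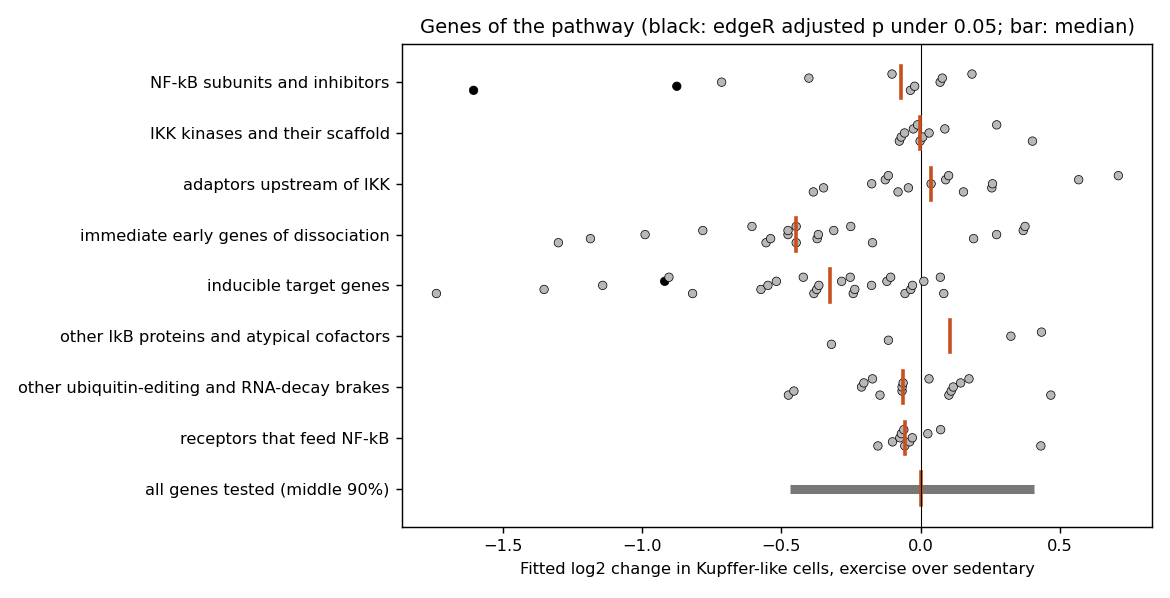
Fitted log2 change in Kupffer-like cells, exercise over sedentary, of each tested gene of the 10 (top row) and of each pathway list, with an orange bar at the median; black points passed edgeR at an adjusted p under 0.05, and the grey bar spans the middle 90% of all genes tested (−0.47 to 0.41). The black points are Tnfaip3, Nfkbiz and Ccl3, and the medians of target genes (−0.32) and immediate early genes (−0.45) lie left of that of all genes.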

How the data were processed

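The deposited values are whole-number UMI counts per gene and barcode, not normalized by the authors. The submitters' processing notes name Cell Ranger, with no version stated, Seurat 3.1 and mm10 (GRCm38), and the series text names a pre-mRNA reference, so counts may include intronic reads. That text also speaks once of nuclei, whereas the labels' protocols describe cells. No source used here gives the cell calling or the use of strand. The lowest total per barcode was 931 to 1126 UMIs.

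Cells needed a minimum of 500 UMIs and of 200 genes, with no more than 20% of UMIs mitochondrial, and 460 doublets, scored against simulated ones, were removed. Leiden clustering (2000 variable genes, 30 components, 20 neighbours, resolution 1.0; Python 3.11.15, igraph 0.11.9, leidenalg 0.10.2) left out the 10 genes and, after a first clustering had been seen to split Kupffer cells by free RNA, 223 hepatocyte and erythroid genes. It gave 28 clusters, named by hand from markers; 3 (144 cells) stayed unnamed. Sums of UMIs over the cells of a class in a library entered edgeR 4.0.16 (R 4.3.3; TMM, filterByExpr, quasi-likelihood F-test, Benjamini-Hochberg), with DESeq2 1.42.0 as an alternative. Each SE is the size of the log2 change over the square root of F. The edgeR script was tested on simulated data. An exact permutation test is not printed, since 2 against 2 libraries cannot reach the threshold.

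The genes, lists, tests and naming rules were chosen with earlier results of these data known. Of each list, called genes and, up to 3 in all, those with the smallest p are named. Coordinates come from the GENCODE vM21 annotation of GRCm38, where all 10 genes matched by identifier. Intervals and SDs cover counting error and the spread of 2 or 4 libraries.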

Additional observations from a re-analysis of the deposited data

Results flagged for a closer look

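For 4 subunit genes both exercise libraries lay on one side of both sedentary libraries in opposite directions in different cell classes. Over the 11 classes 12 of 47 tests of the 5 subunit genes had no overlap (25.5%), a share below the 27% to 37.7% of all genes that had none in a class. The differences between these classes were not tested, except that edgeR called 0 of the comparisons of Kupffer-like with B-like, T-like and endothelial-like cells. For Nfkb1, the p50 precursor gene, the log2 change was 0.89 in classical monocyte-like cells, −0.49 in other macrophage-like cells and −0.25 in endothelial (LSEC)-like cells. For Rel it was 0.99 in cycling Kupffer-like cells, −0.73 in cDC1-like cells and −0.40 in cDC2-like cells. For Relb it was 0.18 in Kupffer-like cells and −0.68 in cDC1-like cells. For Rela it was 0.44 in B-like cells, 0.35 in pDC-like cells, −0.18 in T-like cells and −0.51 in NK or ILC-like cells. None of these 12 changes passed edgeR's adjusted threshold. Rel in cycling Kupffer-like cells passed the filter on low counts only through its exercise libraries, so its direction there is partly set by the filter.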

How the results depend on the processing

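Of 803 alternative values of 57 gene-level results, 679 kept their direction and side of the threshold, 56 passed only under the alternative, 23 no longer passed and 45 turned sign. Among the 10 genes in Kupffer-like cells 2 were called (0.475% of all genes), and 1 with doublets kept (0.35%), at resolution 0.5 (0.433%) or in cells with no hepatocyte marker UMI (0.206%), 0 in cluster c4 (0.205%) or c6 alone (0.361%), 3 in DESeq2 (0.718%), with no filter on low counts (1.52%) or thinned to 1500 UMIs (0.62%), and 0 to 3 when each library was left out in turn (0.0097% to 1.17%). In the other classes 1 was called (0.0538%), and 0 in DESeq2 (0.0642%) or with doublets kept (0.0298%), 5 with no filter (0.27%) and 0 to 5 with a library left out (0.286% to 0.69%). Over all kept cells 0 were called (0.074%), and 2 in DESeq2 (0.683%), 3 with no filter (1.87%) and 0 to 3 with a library left out (0.353% to 2.33%). Between classes edgeR called 0 (0.101%), and 1 with no filter (0.128%). The mean share of Kupffer-like cells with a Tnfaip3 UMI was 2.51% in exercise and 9.02% in sedentary libraries, 5.23% and 13.3% unthinned, and 5.61% in sedentary libraries at 1000 UMIs. That of Nfkbiz was 12.2% and 20.7%, 20.7% and 29.8% unthinned, and 8.45% and 13.4% at 1000 UMIs. A fit with a library left out has 1 library in 1 of the groups, so it cannot measure the spread of that group. The unthinned shares and the fit of clusters c0 and c2 together were added after seeing the data. The cause was not tested for any of these.

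No label says that the replicate numbers pair the libraries. The correlation of same-number deviations was 0.165 over 9890 genes, and with 2 pairs it cannot tell whether they do. With the replicate number as a block, 3 of the 10 genes were called in Kupffer-like cells (1.72% of all genes), 5 in the other classes (0.613%) and 3 over all kept cells (1.32%).

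Some log2 changes turned sign, and not only those near 0 in the main fit. In Kupffer-like cells Zfp36 (−0.45), Tab3 (0.40) and Nfkbid (−0.32) did so too. So did Nfkbia in endothelial-like cells (−0.58) and Tnfaip3 in classical monocyte-like cells (−0.59). Among Kupffer-like cells with no hepatocyte marker UMI the changes that turned were Nfkb1 (0.041), Relb (−0.10), Ltbr (0.26), Ikbkb (−0.12) and Tab1 (−0.63). In c0 they were Nfkb1 (0.010), Rel (−0.10), Relb (−0.12) and Ikbkb (−0.020), in c2 Nfkb1 (0.0082), Nfkb2 (0.26) and Zc3h12a (−0.14), in c4 Ltbr (0.13), in c6 Rela (0.44), Ikbkb (−0.28) and Zfp36 (0.43), and in c0 and c2 together Nfkb2 (0.031). Nfkb2 was at 0.046 with doublets kept and 0.012 at resolution 0.5, Zc3h12a at −0.0094 with cycling cells and Tab1 at −0.063 thinned. Nfkbiz in B-like cells was at 0.0090 under stricter cell filters (1000 UMIs, 500 genes) and 0.015 with doublets kept. With each library left out in turn, Nfkb1 ran from −0.18 to 0.11, Nfkb2 from −0.31 to 0.38, Rel from −0.33 to 0.37, Zc3h12a from −0.16 to 0.27, Tnfrsf1a from −0.22 to 0.018, Ltbr from −0.20 to 0.038, Tab1 from −0.045 to 0.48, Tab3 from −0.19 to 1.27 and Nfkbid from −0.60 to 0.062. Likewise Nfkbiz ran from −0.51 to 0.35 and Nfkbia from −0.27 to 0.034 in B-like cells, Tnfaip3 from −0.70 to 0.52 and Nfkbia from −1.24 to 0.19 in endothelial-like cells, Nfkbia from −0.13 to 0.35 in pDC-like cells, and Tnfaip3 from −0.94 to 0.022 and Nfkbia from −0.65 to 0.32 in classical monocyte-like cells. Depth limits Zc3h12a, Nfkb2 and Tnip1 most, with fewer than 80 UMIs in each Kupffer-like library.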
